A study of Mus musculus with 12 samples.

Results

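Most open chromatin far from a gene start lies in introns and between genes, and a small share lies over the exons themselves. The regions described here were the ATAC-seq peaks whose midpoint fell in a coding exon or an untranslated region (UTR) of a protein-coding gene, on an autosome and over 1000 bp from any protein-coding transcription start site (TSS), on GRCm38 with GENCODE vM21 basic. There were 843 such peaks of 42424 distinct peaks in the deposited table (1.99%), picked from that table by position alone. The table unites peaks found in each library of this series, so a region open in a single group can be a member. The 843 peaks comprised 449 in coding exons, 369 in 3′ UTRs and 25 in 5′ UTRs, and lay in 805 genes. Each peak is named by the gene whose exon holds its midpoint, which does not mean that it acts on that gene.

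ATAC-seq reads come from DNA that the Tn5 transposase can reach, so the number of reads in a peak follows how open that DNA is across the sorted cells. The cells were sorted as CD45- CD24- CD31- Pdpn+, which leaves stroma without endothelium, from gut-draining mesenteric lymph nodes (mLN) or skin-draining peripheral lymph nodes (pLN) of wild-type BALB/c mice, kept under specific pathogen-free (SPF) conditions or germ-free (GF). The groups were mLN-SPF (n = 3 libraries), pLN-SPF (n = 3), mLN-GF (n = 3) and pLN-GF (n = 2). SPF mice were 7 to 12 weeks old and GF mice 6 to 10 weeks old, the colonies were bred at different facilities, and the SPF mice are given in the methods as a CD90.1 line, so housing cannot be told apart from colony, line and age. The source label of the pLN samples reads both skin-draining and mesenteric, and the tissue was taken from the titles. The labels do not say whether libraries came from separate animals, so p-values measure only the spread between these libraries. In such bulk samples, fewer cells of a type and less open chromatin per cell cannot be told apart.

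Exons can carry regulatory DNA besides their coding role. Enhancers have been described that overlap coding exons of a gene and act on that gene or on a neighbour. In lymph nodes, fibroblastic reticular cells build the scaffold and produce the chemokines that place lymphocytes, and CD34+ stromal cells lie around vessels and in the capsule.

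To show what these regions hold, 18 short consensus motifs were searched on both strands in the 300 bases centred on each midpoint, and matches to different motifs were allowed to overlap. Members are termed called where the nodes differed by at least 2-fold at an adjusted p under 0.05 (limma) in SPF mice, which held for 94 higher in mLN-SPF (11.2%, all peaks 6.49%) and 35 higher on the pLN side (4.15%, all peaks 4.27%). The AP-1 letters TGANTCA occurred in 15.8% of the exon and UTR peaks, 25.3% of intronic and 18.4% of all autosomal peaks, and in 26.6% of the members higher in mLN-SPF, 25.7% of those higher in pLN-SPF and 13.9% of the members not called (33.3% and 24.4% of all called peaks). The NFI letters TTGGCA were in 24.5% of the members higher in mLN-SPF and in 42.9% of those higher in pLN-SPF, beside 18% and 36.6% of all called peaks of these directions and 20.4% of all autosomal peaks. The MEIS letters TGACAG were in 15 of 94 and in 13 of 35 (37.1%), beside 21.7% and 27.2% of all called peaks and 19.2% of all autosomal peaks. The NF-kB letters GGGANTTCC were in 2 of 94 members higher in mLN-SPF (2.13%) and in 5 of 35 higher in pLN-SPF (14.3%), beside 1.10% and 8.43% of all called peaks and 3.11% of all autosomal peaks. The lines that follow show matches in several members whose values are given further on, within the peak, on GRCm38, 5′ to 3′ on the strand of the gene, with the matched letters or their reverse complement in capitals. They are shown so that the letters behind these shares can be seen in the peaks with large changes between nodes, and for CTCF in a peak of high level, and were picked after the values were known. In these letters N stands for any base, and the Fbln5 match has a different middle base from the other AP-1 matches shown. A match is a description of the letters only.
Dusp16 3′ UTR, AP-1, chr6:134716351-134716380, minus strand: gtagctaggggcTGACTCAtatctcaggtt
Fbln5 3′ UTR, AP-1, chr12:101746719-101746748, minus strand: tctgactatctaTGAATCAccagacaaaac
Zfp217 5′ UTR, AP-1, chr2:170120629-170120658, minus strand: ctgacgcacatcTGACTCAcagcctggggc
Gm10300 3′ UTR, AP-1, chr4:132076889-132076918, plus strand: ctgctagtgggTGACTCAgcaacgccggcg
Smchd1 coding exon, NFI, chr17:71448622-71448651, minus strand: cttttaactcgtTTGGCAgatgataagcaa
Adamts18 3′ UTR, NFI, chr8:113697733-113697762, minus strand: accgtgctttttTGCCAAaaccaaagtaac
Unc5d coding exon, MEIS, chr8:28719684-28719713, minus strand: tacatccaaaatCTGTCAtcactgccgaca
Samd13 coding exon, MEIS, chr3:146646366-146646395, minus strand: gaaatgacgtgtTGACAGgacttcagctaa
Efcc1 3′ UTR, NF-kB, chr6:87755380-87755409, plus strand: taatcactggGGAACTCCCcacctctgagg
Zfhx2 3′ UTR, NF-kB, chr14:55060990-55061019, minus strand: agtgtcctagaGGAAGTCCCcccaatgcgc
Zfp217 5′ UTR, NF-kB, chr2:170120730-170120759, minus strand: tttcagattttGGAAATCCCttgtcttcac
Cep97 coding exon, NF-kB, chr16:55905545-55905574, minus strand: actccgtgttgGGGAATTCCgctgacacgg
Spaca6 coding exon, CTCF, chr17:17838200-17838229, plus strand: gcacgaccagcGCCCCCTggcgcggctcta

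Other letters were found at a higher share in the members not called. The CTCF core AGGGGGC was in 8.90% of all exon and UTR peaks, in 10.1% of those not called and in 1 of 94 members higher in mLN-SPF (1.06%) and 2 of 35 on the pLN side (5.71%), with 8.31% of all autosomal peaks. Of all called peaks, 3.5% of those higher in mLN-SPF and 3.76% of those higher in pLN-SPF held it. The GC box GGGCGGG was in 13.2% of the members not called, 4.26% of those higher in mLN-SPF and 0 of 35 higher in pLN-SPF, with 17.5% of all autosomal peaks and 44.6% of promoter peaks. It was in 4.83% and 3.6% of all called peaks of these directions. The low shares of both motifs in called peaks were thus not particular to exon and UTR peaks.

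The deposited values are RPKM, in which the reads of a peak are divided by its length and by a scale for the library. The scale recovered from the values lay near the reads in peaks. In mLN-SPF replicate 3 it was below the 2886129 reads in peaks, so it is not the total of reads. Each library held 2886129 to 10380493 reads in peaks, and the median exon or UTR peak held 25 to 90 reads. Of all library values of the 843 peaks, 8 were at 0 reads and 80 at 1 to 3 reads. The column for pLN-GF replicate 2 was left out, because each of its entries is the average of the remaining 5 pLN columns. Promoter peaks carried the markers of the sorted cells in part: 21 of 28 markers of CD34+ stromal cells had one (summed RPKM 743 to 907 in mLN, 604 to 696 in pLN libraries), and so did 19 of 26 markers of fibroblastic reticular cells (557 to 660 and 627 to 740), although Pdpn, Ccl19 and Ccl21a had none. Promoter peaks also marked 10 of 16 perivascular genes (218 to 288 in mLN, 316 to 378 in pLN), 7 of 19 blood endothelial genes (136 to 188 and 119 to 175), 4 of 10 lymphatic endothelial genes (91.9 to 158 and 61.5 to 113), 2 of 18 hematopoietic genes (29.6 to 49.3 and 31.1 to 56.5), 2 of 11 mesothelial genes (57.7 to 78.1 and 17.7 to 36.4) and 2 of 10 epithelial and Schwann cell genes (70.1 to 85.5 and 59.6 to 84.5). Ptprc, Pecam1 and Cdh5, which mark the cells that the sort removes, had no promoter peak. The CD34+, perivascular and mesothelial sums separated the nodes, and their part in the differences given here was not tested.

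The exon and UTR peaks were short, distal and of intermediate base composition. Their median width was 392 bp (98 to 1810 bp), and 483 of them (57.3%) lay wholly inside an exon, namely 315 of the 369 in 3′ UTRs but 160 of the 449 in coding exons. The last exon held 535 of the members, including 161 of those in coding sequence. The median distance to the start of the own gene was 19688 bp. Median GC content was 56.67% in coding exons and 51.67% in 3′ UTRs, between that of introns (48.33%) and promoters (65.67%), and the CpG ratio (observed over expected) was 0.476 in coding exons and 0.255 in 3′ UTRs against 0.231 in introns and 0.813 in promoters. Repeat-masked sequence covered more than 50% of the width in 2 of the 843 peaks (0.237%), compared with 1.52% of intronic and 2.48% of intergenic peaks. The start sites of other transcripts were kept out only in part, since 168 members lay within 1000 bp of an annotated start that the limit did not use. At the limit itself, the 59 members 1000 to 2000 bp from a TSS had a median level of 32.63 RPKM and a GC content of 60.00%, and the 488 promoter peaks 500 to 1000 bp from a TSS 32.40 RPKM and 54.33%.

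Across libraries, the level of a member averaged 6.54 to 311 RPKM with a median of 24.75, close to the medians of intronic (23.92) and intergenic (23.53) peaks and below that of promoters (40.31). The member with the highest mean RPKM lay in the 3′ UTR of Lars2, the mitochondrial leucyl-tRNA synthetase (chr9:123461822-123462187, exon 21 of 21). It read 562, 187 and 307 RPKM in mLN-SPF replicates 1 to 3, 224, 206 and 482 in pLN-SPF, 358, 330 and 267 in mLN-GF and 256 and 243 in pLN-GF. The SPF groups overlapped widely (log2 fold change 0.18 ± 0.36 SE, limma adjusted p = 0.781), whereas the GF groups did not overlap but were not called (0.34 ± 0.40, adjusted p = 0.63). The next highest were Spaca6 (sperm-egg fusion, coding exon; 110 to 162 RPKM), Tmbim1 (a BAX inhibitor motif protein, 5′ UTR; 84.6 to 153), B430305J03Rik (coding exon; 78.0 to 150) and Magi2 (a junctional scaffold protein, coding exon; 65.4 to 120). Those of Spaca6, Tmbim1 and Magi2 spanned the annotated start of another transcript, at a distance of 0 bp. None of the 5 was called in either housing, with adjusted p from 0.0717 to 0.781 in SPF mice.

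As a class, the exon and UTR peaks stood higher against intronic peaks in mLN than in pLN. In each library, the median log2(RPKM + 1) of the members minus that of the 12622 intronic peaks was taken. It was 0.205, 0.086 and 0.156 in mLN-SPF replicates 1 to 3 and 0.144, 0.124 and 0.142 in mLN-GF, whereas it was 0.044, 0.005 and 0.059 in pLN-SPF and 0.002 and 0.035 in pLN-GF. All 6 mLN libraries thus lay above all 5 pLN libraries. The means were 0.143 ± 0.039 (SD, n = 6) in mLN and 0.029 ± 0.025 (n = 5) in pLN, a difference of 0.114 (exact two-sided permutation test, p = 0.00433, the smallest this design allows). The difference was 0.113 within SPF mice (exact p = 0.1, the smallest possible with 3 against 3) and 0.118 within GF mice (exact p = 0.2, the smallest possible with 3 against 2).

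By housing, the means were 0.092 ± 0.075 in SPF and 0.089 ± 0.066 (SD) in GF libraries (difference 0.003, exact permutation p = 0.948). Base composition moved with the node result. Among intronic peaks, those of high GC content exceeded those of low GC content by 0.363 in mLN and 0.240 in pLN (difference 0.123, exact permutation p = 0.0173). Against intronic peaks of matched GC content, a comparison added after the data had been seen, the members lay below the reference in every library, with means of −0.03 in mLN and −0.107 in pLN. The difference between nodes was then 0.077 (exact permutation p = 0.00433), so that the order of the nodes was kept while the sign of the values themselves changed with the reference. The part of base composition in the node result was not tested beyond this.

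**Figure D1:**
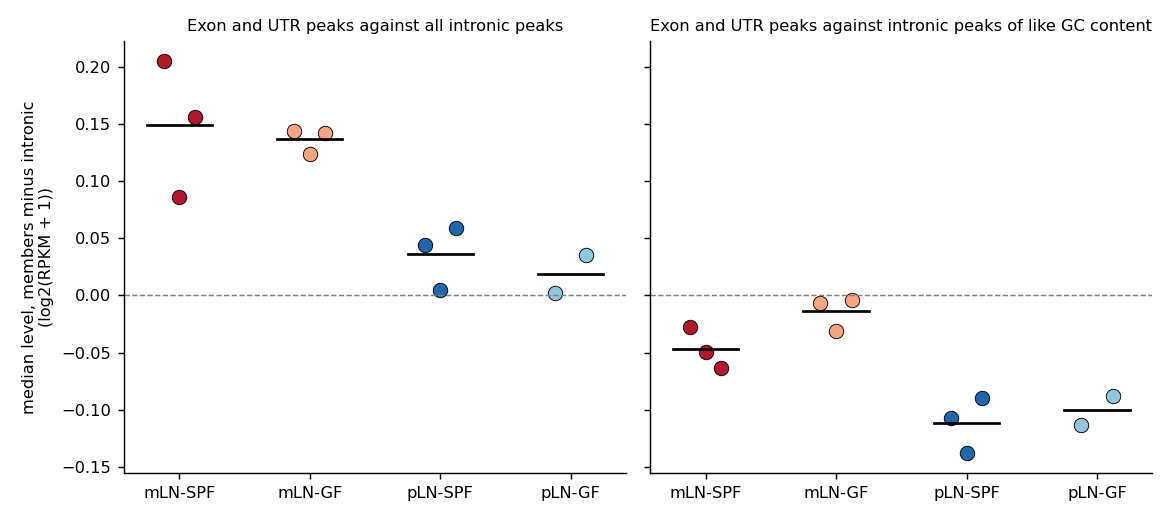
Median log2(RPKM + 1) of the 843 exon and UTR peaks minus that of intronic peaks in each library (points) with group means (lines), against all intronic peaks on the left and against intronic peaks of like GC content on the right. All 6 mLN libraries lie above all 5 pLN libraries in both panels, and the points drop below 0 with GC matching.

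Location divided the exon and UTR peaks unevenly. In SPF mice, 129 of the 843 members (15.3%) differed between nodes by at least 2-fold at an adjusted p under 0.05 (limma on log2(RPKM + 1), Benjamini-Hochberg over all 42424 peaks), against 10.8% of all peaks. Of these, 94 had the higher level in mLN-SPF (11.2%, all peaks 6.49%) and 35 in pLN-SPF (4.15%, all peaks 4.27%). The share above the background was thus on the mLN side, and the background includes 11939 promoter peaks, of which 0.804% and 0.427% were called. Beside introns, with 9.04% on the mLN side and 5.47% on the pLN side, the 3′ UTR peaks were called as higher in mLN-SPF in 13.0% (48 peaks) and in pLN-SPF in 5.42% (20), and the coding exon peaks in 10.2% (46) and 3.12% (14). Only 1 of 25 peaks in 5′ UTRs was called, in Zfp217. The median log2 fold change was 0.05 over the members and 0.00 over all peaks. The libraries of the nodes did not overlap in 309 members (36.7%), compared with 33.1% of all peaks.

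This count rested on single libraries. It was 70 (54 and 16) when pLN-SPF replicate 2 was left out, 81 for pLN-SPF replicate 1, 81 for mLN-SPF replicate 3, 85 for mLN-SPF replicate 1 and 162 for mLN-SPF replicate 2. The mLN side held more calls than the pLN side each time.

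**Figure D2:**
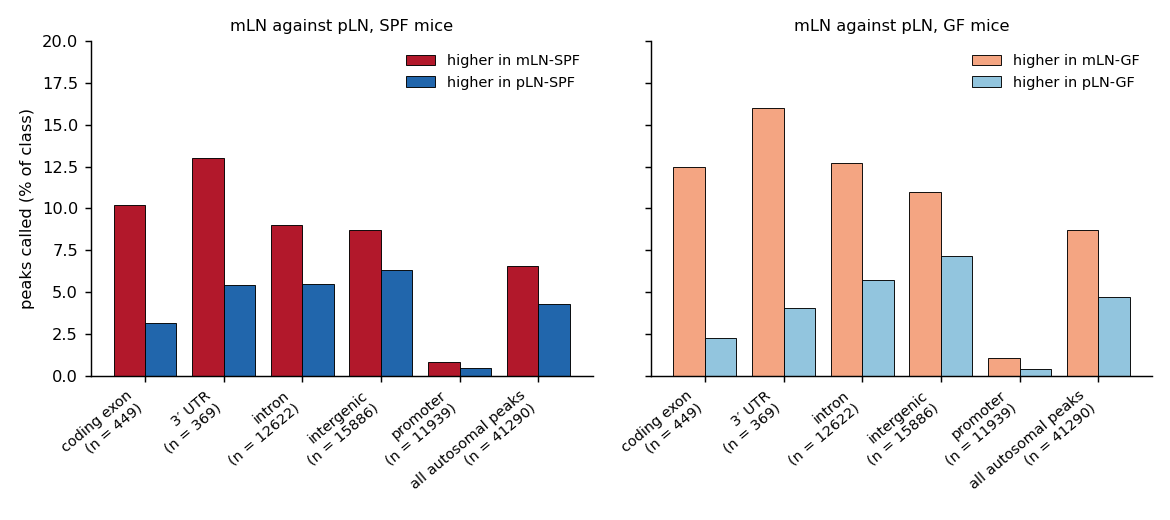
Share of peaks called in each class (bars, in percent of the class; n in the labels), higher in mLN or higher in pLN, in SPF mice (left) and GF mice (right). Of the 369 peaks in 3′ UTRs, 48 and 59 are higher in mLN, and promoter peaks are called in 0.804% and 1.07%.

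Among the members higher in mLN-SPF whose libraries did not overlap those of pLN-SPF, the largest changes lay in exons of Ppp6r1, Nudt9, Plekho1, Cep97 and Dusp16. A called peak in a coding exon of the kinase gene Wnk4, named after its values were seen, changed by 2.40 ± 0.63 (log2, limma adjusted p = 0.0228), but pLN-SPF replicate 3 (28.1 RPKM) lay within the range of mLN-SPF (28.01 to 49.0). The coding exon peak of Ppp6r1, a regulatory subunit of protein phosphatase 6, lay at chr7:4642160-4642269 in exon 6 of 24. It read 23.0, 23.4 and 35.2 RPKM in mLN-SPF against 4.34, 0 and 5.94 in pLN-SPF, from 38 and 7 reads in all, and 45.6, 29.7 and 29.4 in mLN-GF against 5.09 and 1.30 in pLN-GF. Every mLN library exceeded every pLN library, with a log2 fold change of 3.05 ± 0.61 (SE) in SPF mice (limma adjusted p = 0.00686) and 3.23 ± 0.69 in GF mice (adjusted p = 0.00665), at few reads on the pLN side. The coding exon peak of Nudt9, an ADP-ribose hydrolase, at chr5:104059570-104059917 (exon 6 of 8), read 19.6, 15.3 and 20.3 RPKM in mLN-SPF against 3.57, 0.916 and 1.88 in pLN-SPF, and in GF mice 22.8, 11.6 and 11.9 against 2.14 and 2.47. The nodes did not overlap in either housing (log2 fold change 2.72 ± 0.44, adjusted p = 0.00276 in SPF mice, and 2.25 ± 0.49, adjusted p = 0.00778 in GF mice).

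Plekho1 encodes a pleckstrin homology domain protein that binds casein kinase 2. Its coding exon peak (chr3:95990747-95990914, exon 5 of 6) read 34.7, 18.6 and 52.4 RPKM in mLN-SPF against 5.68, 6.32 and 3.89 in pLN-SPF, 58.1, 31.5 and 74.9 in mLN-GF and 8.88 and 11.1 in pLN-GF. The mLN libraries were all higher, by 2.43 ± 0.39 on the log2 scale in SPF mice (limma adjusted p = 0.00261). Dusp16, a phosphatase of the JNK pathway, carried its peak in the 3′ UTR with the AP-1 letters shown above (chr6:134716272-134716577, exon 7 of 7). It read 33.7, 26.5 and 48.4 in mLN-SPF against 6.24, 4.86 and 15.0 in pLN-SPF, and 44.0, 36.6 and 65.2 in mLN-GF against 5.49 and 18.3 in pLN-GF. The nodes did not overlap in either housing, and among the pLN-SPF libraries replicate 3 was the nearest to mLN (log2 fold change in SPF mice 2.04 ± 0.44, adjusted p = 0.00922).

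The other members of this set were higher in mLN-SPF as well, and Cep97 and Leprot were not called in GF mice. In the 3′ UTRs, Hsd17b13, a lipid droplet dehydrogenase of the liver, changed by 2.00 ± 0.41 (log2, adjusted p = 0.00737; 14.6 to 24.5 against 2.53 to 7.83 RPKM) and Slc8a1, the sodium-calcium exchanger, by 1.99 ± 0.41 (adjusted p = 0.00798; 19.1 to 34.2 against 3.19 to 12.8). In coding exons, Nup214, a nuclear pore protein, changed by 1.99 ± 0.43 (adjusted p = 0.00977) and Tcp11l2 by 1.97 ± 0.33 (adjusted p = 0.00323), both with no overlap of the nodes in either housing. The Nup214 peak lay 198 bp from the start of another Nup214 transcript. Cep97, a centrosomal protein that restrains cilium formation, changed by 2.05 ± 0.51 (adjusted p = 0.018). It was not called when mLN-SPF replicate 3 (adjusted p = 0.0689), pLN-SPF replicate 1 (0.0768) or replicate 2 of the same group (0.0659) was left out, or without both mLN libraries numbered 2. Its GF value was 1.70 (adjusted p = 0.0591). Leprot, which shares its start with the leptin receptor, changed by 2.01 ± 0.55 (adjusted p = 0.0259), with pLN-SPF replicate 3 at 0 reads, and was not called without mLN-SPF replicate 1 (adjusted p = 0.0914) or 3 (0.0743), or in the fit of both SPF groups alone (0.0918). In GF mice Leprot had 1.06 (adjusted p = 0.273).

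Among the members higher in pLN-SPF, the largest changes lay in exons of Smchd1, Unc5d, Efcc1, Adamts18 and Samd13. The coding exon peak of Unc5d, a netrin receptor, at chr8:28719641-28719796 (exon 11 of 18) read 28.8, 21.1 and 37.7 RPKM in pLN-SPF and 4.99, 3.54 and 9.04 in mLN-SPF. In GF mice it read 31.1 and 20.2 in pLN against 8.46, 13.0 and 6.91 in mLN, so that the nodes were apart in both housings (log2 fold change −2.18 ± 0.38, limma adjusted p = 0.00367 in SPF mice, and −1.36 ± 0.42, adjusted p = 0.0432 in GF mice). The coding exon peak of Smchd1, a chromatin protein of the inactive X chromosome, at chr17:71448604-71448908 (exon 6 of 48), read 19.1, 17.1 and 20.4 in pLN-SPF and 3.19, 7.24 and 1.16 in mLN-SPF. In GF mice the libraries were closer, at 13.5 and 10.8 in pLN and 6.06, 7.64 and 4.71 in mLN, without overlap and without a call (−2.23 ± 0.46, adjusted p = 0.00762 in SPF mice, and −0.89 ± 0.51, adjusted p = 0.272 in GF mice). The difference between the housings was not called (−1.34 ± 0.69, interaction adjusted p = 1).

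Adamts18, a secreted metalloprotease of the matrix, and Zfhx2, a zinc finger homeobox factor, carried their peaks in the 3′ UTR. The Adamts18 peak (chr8:113697586-113697941) read 26.8, 28.9 and 32.1 RPKM in pLN-SPF, 2.73, 9.31 and 9.90 in mLN-SPF, 33.5 and 25.4 in pLN-GF and 5.19, 14.8 and 4.54 in mLN-GF. The Zfhx2 peak (chr14:55060952-55061189) read 24.1, 32.1 and 46.7 in pLN-SPF, 8.99, 10.1 and 8.88 in mLN-SPF, 46.2 and 37.4 in pLN-GF and 11.1, 10.5 and 4.53 in mLN-GF. Both were separated by node and called in both housings, Adamts18 at −2.01 ± 0.46 (log2, adjusted p = 0.0123) and Zfhx2 at −1.73 ± 0.34 (adjusted p = 0.00653) in SPF mice. Samd13 (coding exon; chr3:146646102-146646549) had the widest gap in GF mice of these members, with 48.7 and 46.8 RPKM in pLN-GF and 9.42, 6.25 and 2.01 in mLN-GF, against 27.7, 29.4 and 29.9 in pLN-SPF and 8.25, 9.86 and 4.72 in mLN-SPF. Its log2 fold change was −1.85 ± 0.41 in SPF (adjusted p = 0.0109) and −2.998 ± 0.46 in GF mice (adjusted p = 0.00114).

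Efcc1 (3′ UTR, −2.08 ± 0.45, adjusted p = 0.00919; 50.6 to 73.5 RPKM in pLN-SPF and 7.08 to 26.6 in mLN-SPF), and Bbs2, a subunit of the BBSome of the cilium (coding exon, −1.58 ± 0.30, adjusted p = 0.00574), were called in both housings. The 3′ UTR peak of the predicted gene Gm10300 was called in SPF mice (−1.47 ± 0.21, adjusted p = 0.00203) and was under 2-fold in GF mice (−0.86 ± 0.24, adjusted p = 0.0267). Wdr19, a component of intraflagellar transport, and Zfp217, a transcriptional regulator with the single called 5′ UTR peak, were less stable. Wdr19 (coding exon, −1.74 ± 0.47, adjusted p = 0.0259) was not called without mLN-SPF replicate 1 (adjusted p = 0.0919) or 3 (0.0574), or without pLN-SPF replicate 1 (0.0838) or 2 (0.108). Zfp217 (−1.47 ± 0.36, adjusted p = 0.0168) was not called without pLN-SPF replicate 2 (0.0525) or 3 (0.0524). In GF mice neither was called, at −1.34 (adjusted p = 0.105) and −1.14 (adjusted p = 0.0725).

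**Figure D3:**
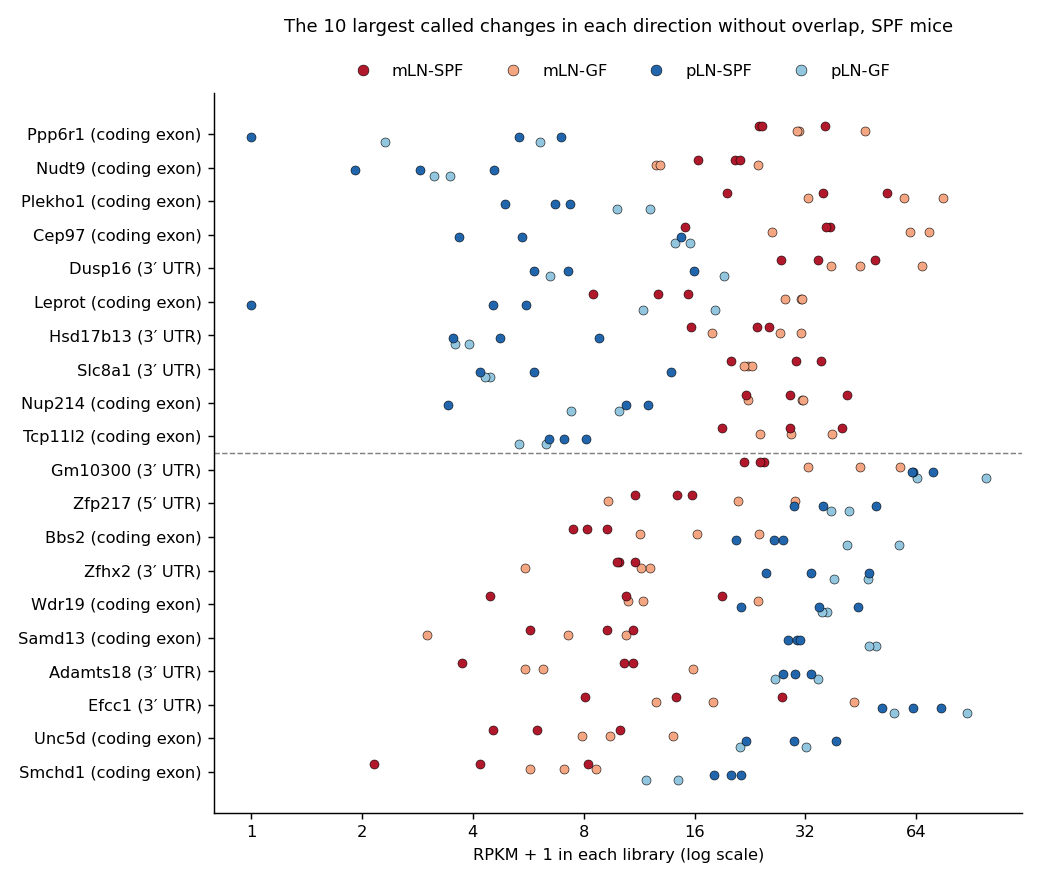
RPKM + 1 (log scale) of the 10 called members with the largest change in each direction among those whose SPF libraries do not overlap between nodes, 1 point per library and 4 groups by colour; the dashed line parts members higher in mLN-SPF (above) from those higher in pLN-SPF (below). The SPF libraries of the nodes are apart for every peak shown, as the choice of peaks required, and in GF mice they are apart in the same direction, most narrowly for Gm10300 (56.9 in mLN-GF replicate 2 and 63.3 in pLN-GF replicate 1).

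GF mice share no library with SPF mice, so their fold changes and signs give a second reading of location. The calls of both housings come from the same fit with a shared spread, and are not fully separate. In GF mice, 141 of the 843 members were called (16.7%, all peaks 13.2%), 116 higher in mLN-GF (13.8%, all peaks 8.55%) and 25 higher in pLN-GF (2.97%, all peaks 4.62%). The mLN share of these calls was 82.3%. This share was lower under some other settings. The counts higher in mLN-GF and in pLN-GF were 114 and 45 after quantile normalization, 123 and 56 with voom on the recovered reads, and 138 and 65 with the replicate block. The count was 62 without pLN-GF replicate 1 and 71 without pLN-GF replicate 3, of which 57 and 67 were higher in mLN-GF. The libraries of the nodes did not overlap in 48.8% of all peaks in GF mice.

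Of the 129 members called in SPF mice, 126 had the same sign in GF mice (97.7%), compared with 80.1% of all 843 members and 99.0% of all called peaks. Their GF libraries did not overlap, in the same direction, for 116 of them (89.9%, all called peaks 93.7%), 85 were called the same way and 0 the other way. The calls held in GF mice for 72 of 94 members higher in mLN-SPF (76.6%, all such peaks 77.1%) and for 13 of 35 higher in pLN-SPF (37.1%, all such peaks 53.3%). The exceptions in sign were Otulin, a linear-ubiquitin hydrolase (−1.09 in SPF and 0.02 in GF mice), Pla2g2d, a secreted phospholipase of lymphoid tissue (1.25 and −0.57), and Usb1, a U6 RNA processing enzyme (1.10 and −0.20). The 3′ UTR peak of Pla2g2d read 35.1, 28.2 and 34.9 RPKM in mLN-SPF against 25.8, 14.4 and 5.89 in pLN-SPF, but 11.9, 19.6 and 17.8 in mLN-GF and 21.8 and 27.1 in pLN-GF, so that neither pair of groups overlapped and the higher node was not the same in SPF and GF libraries. The test of that difference gave 1.81 ± 0.59 on the log2 scale (limma interaction term, adjusted p = 1). These 3 were named after their values were seen.

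**Figure D4:**
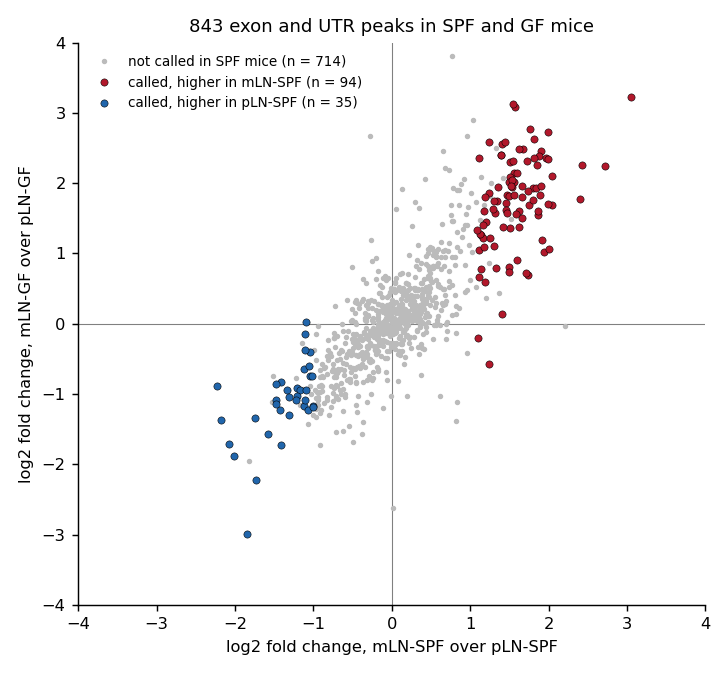
Log2 fold change of mLN over pLN for the 843 exon and UTR peaks in SPF mice (x axis) and GF mice (y axis), with no library in common; coloured points were called in SPF mice. Of the 129 coloured points, 126 lie in the quadrant of their own sign.

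Most of these changes had no like change at the start of the same gene. Of the 129 called members, 92 lay in a gene with a promoter peak (62 members of the mLN side, 30 of the pLN side). The promoter value lay on the side of the member in 47 cases and on the other side in 45. In 1 case a promoter peak was called the same way, in the adenylate cyclase gene Adcy7, which has 4 promoter peaks. Calls were also rare among all 11939 promoter peaks, at 0.804% toward mLN and 0.427% toward pLN in SPF mice. The count of promoter calls thus does not set these genes apart, and promoters of genes with uncalled members were not compared. The median promoter change in the direction of the member was 0.00 (quartiles −0.18 and 0.14), against a median size of 1.52 of these members on the log2 scale. The Smchd1 promoter had means of 76.4 RPKM in mLN-SPF against 78.9 in pLN-SPF, the Nudt9 promoter 68.1 and 61.7, and the Fbln5 promoter 26.3 and 25.0. For Unc5d and Zfp217 the promoter value lay on the opposite side, at 0.45 ± 0.36 and 0.41 ± 0.26 (log2, adjusted p = 0.437 and 0.31). In 2 genes the promoter value was at least 50% of the member's log2 change and in its direction. They were the desaturase gene Fads6 (0.78 against 1.48, promoter adjusted p = 0.0703) and the efflux pump gene Abcb1b (−0.74 against −1.34, promoter adjusted p = 0.0137). The promoter value was also at least 50% of the member's change, but on the opposite side, in Pla2g2d (−1.16 against 1.25, limma adjusted p = 0.127), Itgb6 (−0.82 against 1.54, 0.194) and Col14a1 (−0.66 against 1.17, 0.201). The promoters of Zbtb43 (0.81, limma adjusted p = 0.0345) and Zfhx2 (−0.53, 0.0293) moved with their members at under 2-fold. These promoters and that of Adcy7 were chosen after their values were seen.

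**Figure D5:**
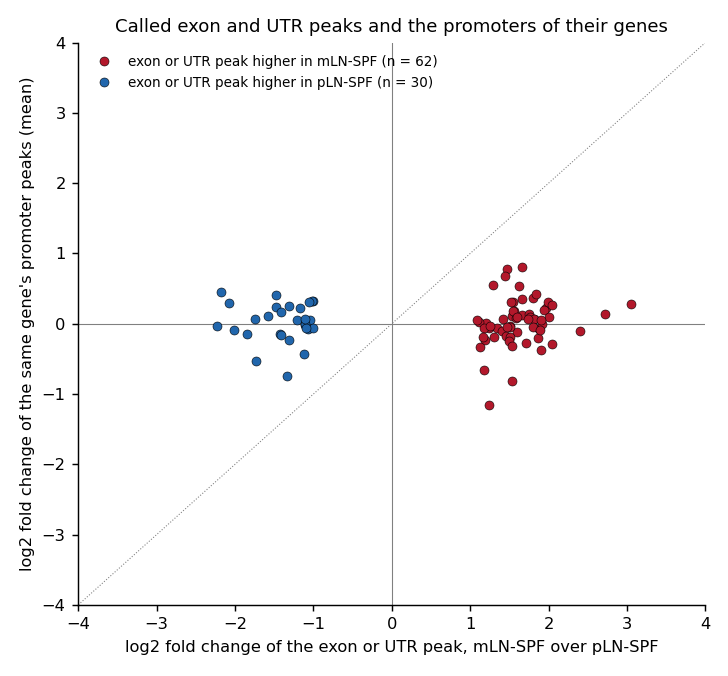
Log2 fold change (mLN-SPF over pLN-SPF) of 92 called exon and UTR peaks (x axis) and of the promoter peaks of the same gene (y axis, mean where a gene has several); the dotted line marks equal change. Promoters lie near 0 (quartiles −0.18 and 0.14 in the direction of the member) on both sides.

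In some genes, peaks within 1 gene also differed from each other. Among the 37 genes with several members, all members of the gene had the same sign in 17. Since 36 of these genes had 2 members and signs of values near 0 were counted, this count alone does not show a difference. Itsn1, an endocytic scaffold protein, had 3 members in the 3′ UTRs of transcripts of different length. The first (chr16:91829300-91829557) read 37.0, 20.7 and 21.9 RPKM in mLN-SPF against 8.51, 6.18 and 11.4 in pLN-SPF, without overlap (1.49 ± 0.38, adjusted p = 0.0186), and the others had log2 fold changes of 0.18 (adjusted p = 0.74) and −0.11 (adjusted p = 0.849). The first was not called when mLN-SPF replicate 1 (adjusted p = 0.0807), pLN-SPF replicate 1 (0.0571) or replicate 2 of that group (0.0806) was left out. Slc8a1 had a second peak in the same 3′ UTR exon, at chr17:81378512-81378747, with 23.9, 36.7 and 31.4 RPKM in mLN-SPF against 32.8, 45.9 and 20.8 in pLN-SPF. These overlapped (−0.06 ± 0.27), unlike the libraries at the called peak of this exon (chr17:81386585-81387017).

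Il2ra, the alpha chain of the interleukin-2 receptor, showed both directions. Its peak in the 3′ UTR of a short transcript (chr2:11648211-11648478) read 14.5, 24.04 and 23.7 RPKM in mLN-SPF against 6.41, 7.53 and 4.88 in pLN-SPF (1.56 ± 0.38, adjusted p = 0.016), and the peak in the 3′ UTR of the long transcript (chr2:11690272-11691480) 13.5, 18.1 and 9.91 in mLN-SPF and 29.4, 26.2 and 23.5 in pLN-SPF (−0.91 ± 0.29, adjusted p = 0.0502). The libraries of the nodes were apart for both, in opposite directions, and the second was not called. In Bspry, exon 6 of 7 held a peak with a log2 fold change of −0.74 ± 0.23 and exon 7 a peak with 1.17 ± 0.26 (called). Il2ra and Bspry were chosen after their values were seen. By the rule for genes with most members, the ties among genes with 2 were taken in order of name: 1700066B19Rik (0.20 and −0.41), Aak1, a kinase of clathrin adaptors (0.73 and −0.03), Adgrf5, an adhesion receptor (0.98 and 0.38), and Aldh16a1 (−0.82 and −0.23). None of these was called in SPF mice, and for the first Adgrf5 peak the adjusted p was 0.0322 at under 2-fold.

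Genes grouped by function gave small numbers of members, described here by their counts beside the median of 0.05 over all 843 (log2, SPF mice). Of the collagens and matrix genes, 2 of 4 members were higher in mLN-SPF and 0 in pLN-SPF (median 0.82). Fbln5 encodes fibulin-5 of elastic fibres, and its 3′ UTR peak (chr12:101746676-101746860) read 25.2, 31.8 and 41.9 RPKM in mLN-SPF against 10.8, 10.3 and 5.30 in pLN-SPF, 34.2, 32.8 and 49.5 in mLN-GF and 6.05 and 4.65 in pLN-GF. All mLN libraries were higher, by 1.82 ± 0.32 (adjusted p = 0.00393) and 2.63 ± 0.36 (adjusted p = 0.000566). The 3′ UTR peak of the fibril-associated collagen Col14a1 was called at 1.17 ± 0.34 (adjusted p = 0.0332) in SPF mice, but it was not when any SPF library except mLN-SPF replicate 3 was left out (adjusted p = 0.0523 to 0.126). It was also not called in the fit of both SPF groups alone. Col15a1 had −0.45 (adjusted p = 0.301).

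In the BMP, Wnt, Hedgehog, Notch and FGF list, 1 of 12 members was higher in mLN-SPF and 0 in pLN-SPF (median −0.11). The called peak lay in the 3′ UTR of the receptor Notch1 (chr2:26458417-26458819), with 35.2, 23.3 and 28.0 RPKM in mLN-SPF against 10.2, 8.70 and 11.4 in pLN-SPF, 30.1, 27.8 and 26.3 in mLN-GF and 7.87 and 13.2 in pLN-GF. The nodes were apart in both housings (1.42 ± 0.27, adjusted p = 0.00587, and 1.37 ± 0.31 in GF mice, adjusted p = 0.00863). The ligand Bmp2 had −0.55 (adjusted p = 0.0468, under 2-fold) and the co-receptor Lrp6 0.89 (adjusted p = 0.0584). Lrp6 was called in GF mice (1.24, adjusted p = 0.022), where 2 members of the list were called on the mLN side and 1 on the pLN side. The list named for visceral and splanchnic mesoderm transcription factors had 1 member, in a coding exon of Tcf4 (1.73 ± 0.50, adjusted p = 0.0323). A single listed gene does not describe such factors as a group, and its place on that list was not tested. The Tcf4 peak was not called without mLN-SPF replicate 3 (adjusted p = 0.137), pLN-SPF replicate 1 (0.123) or 2 (0.0881), or in the fit of both SPF groups alone (0.0795). The limb and body wall transcription factors had none.

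Of the 5 innate immune members, 0 were called in SPF mice (median −0.13), with the receptor gene Tlr6 at −0.82 ± 0.22 (adjusted p = 0.0237; called in GF mice at −1.08, adjusted p = 0.00931), Tnfrsf1b at 0.29 and the chemokine gene Cxcl9 at −0.15. Of the 3 AP-1, KLF and immediate early members, 0 were called (Jun −0.19, Fosb −0.11, Klf6 −0.08), although their 3′ UTRs were open in all libraries at 38.8 to 95.9 RPKM. Markers of stromal subsets and other cells held few members. The count was 1 of CD34+ cells (Col15a1, given above), 2 of fibroblastic reticular cells (Vcam1 −0.28 and Cxcl9), 2 of blood endothelial cells (Pecam1 −0.75, adjusted p = 0.136, and Vwf −0.17), 2 of hematopoietic cells (Spi1 0.26 and Lck 0.01), and 0 of perivascular, lymphatic endothelial, or epithelial and Schwann cells, and none of these was called. The mesothelial list had 1, in the 3′ UTR of the uroplakin gene Upk3b, which was called in SPF mice (1.40 ± 0.40, adjusted p = 0.0321) with 36.9, 16.2 and 24.5 RPKM in mLN-SPF against 5.30, 7.87 and 15.1 in pLN-SPF. In GF mice it read 13.4, 12.2 and 16.6 in mLN and 9.497 and 16.6 in pLN, with overlap (0.14, adjusted p = 0.876). The SPF call was lost without mLN-SPF replicate 1 (adjusted p = 0.128) or 3 (0.082) and without pLN-SPF replicate 1 (0.133) or 2 (0.1). It was also lost in the fit of both SPF groups alone.

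By gene family the counts were small, and 72.9% of all called members and 60.3% of all called peaks were on the mLN side. The counts stand beside called shares of 11.2% (mLN side) and 4.15% (pLN side) of all members, and 6.49% and 4.27% of all peaks. Zinc finger genes had 16 members with 4 higher in mLN-SPF and 1 in pLN-SPF (median 0.15), among them Zbtb43 (1.66 ± 0.28, adjusted p = 0.00337) and Zfp526 (1.58 ± 0.32, adjusted p = 0.00681). Solute carriers had 21 with 4 and 0 (median 0.17). The 3′ UTR peak of Slc37a2, a sugar phosphate exchanger (chr9:37229668-37230207), was the member with the smallest adjusted p in SPF mice. It read 104, 108 and 127 RPKM in mLN-SPF against 56.2, 44.5 and 48.4 in pLN-SPF, 125, 111 and 118 in mLN-GF and 47.3 and 40.4 in pLN-GF, far apart in both housings (1.17 ± 0.14, adjusted p = 0.00131, and 1.41 ± 0.16, adjusted p = 0.000279). The monocarboxylate carrier gene Slc16a5 changed by 1.33 ± 0.28 (adjusted p = 0.00851).

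Motor and cytolinker genes had 15 members with 3 and 0 (median 0.38), in the dynein gene Dnah17 (1.87 ± 0.31, adjusted p = 0.00306), the spectraplakin gene Dst (1.90 ± 0.35, adjusted p = 0.00475) and the kinesin gene Kif1b (1.11 ± 0.31, adjusted p = 0.0306). The coding exon peak of the integrin gene Itgb6 changed by 1.54 ± 0.44 (adjusted p = 0.0308). The collagen family had 5 with 2 and 0 (median 0.46), where Col4a4 changed by 1.39 ± 0.39 (adjusted p = 0.0287) and Col6a6 had −0.34. On the pLN side there was 1 member each of 3 homeobox genes (Zfhx2; Dlx1 0.33 and Hoxa3 0.12 were not called), 6 semaphorin, plexin, ephrin, slit and netrin members (Unc5d; Sema5a −0.82, adjusted p = 0.0325 at under 2-fold, and Sema4a −0.96) and 4 ADAM, ADAMTS and MMP members (Adamts18; Adam22 1.26, adjusted p = 0.0505, and Adamts20 −0.45). Neither the 2 cadherin members (Cdh22 0.49, Pcdh20 0.05) nor the chromatin genes Smarcc1 (0.26) and Kdm2a (0.24) held a call in SPF mice. The calls of Kif1b (adjusted p up to 0.129), Itgb6 (up to 0.126) and Col4a4 (up to 0.126) were lost under some alternatives, among them without pLN-SPF replicate 2 for each. Kif1b was also lost at a pseudocount of 4, and Col4a4 in the fit of both SPF groups alone.

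No exon or UTR peak passed the thresholds for housing. The housing contrasts use the same libraries as the location contrasts. With limma, 0 of 843 members were called between mLN-SPF and mLN-GF (0.00236% of all peaks), 0 between pLN-SPF and pLN-GF (0.00707% of all peaks) and 0 in the interaction of location and housing (0% of all peaks). At an unadjusted p under 0.05 there were 82 members in mLN (9.73%, all peaks 8.11%), of which 63 were higher in mLN-GF and 19 higher in mLN-SPF, 64 in pLN (7.59%, all peaks 6.21%), of which 38 were higher in pLN-GF, and 37 in the interaction (4.39%, all peaks 3.5%). With voom on the recovered reads the counts were 0 in mLN, 3 in pLN and 0 for the interaction. The median standard error of a member was 0.29 on the log2 scale in mLN, 0.32 in pLN and 0.43 for the interaction, which limits what these libraries can show.

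The 3 members called by voom in pLN were all higher in GF mice, and are named after their values were seen. The 3′ UTR peak of Ednrb, the endothelin receptor type B (chr14:103815620-103816036), read 47.9 and 50.9 RPKM in pLN-GF and 14.7, 12.7 and 15.7 in pLN-SPF, and 25.3, 20.1 and 17.2 in mLN-GF and 9.33, 7.95 and 4.23 in mLN-SPF. The GF libraries lay above the SPF libraries in both nodes. The log2 fold change of SPF over GF was −1.72 ± 0.34 in pLN (limma adjusted p = 0.174, voom adjusted p = 0.00191) and −1.46 ± 0.30 in mLN (limma adjusted p = 0.262). The 3′ UTR peak of Tspan14, a tetraspanin partner of ADAM10 (chr14:40906772-40907104), read 44.4, 37.8 and 32.4 in mLN-GF against 12.9, 11.6 and 11.6 in mLN-SPF, and 40.9 and 49.1 in pLN-GF against 10.9, 12.8 and 28.5 in pLN-SPF. It was apart in both nodes as well, with −1.58 ± 0.30 in mLN (limma adjusted p = 0.23) and −1.44 ± 0.34 in pLN (limma adjusted p = 0.294, voom adjusted p = 0.0183). For the coding exon peak of the kinase gene Lrrk2 (chr15:91747533-91747890) the values were 41.2 and 42.9 in pLN-GF and 13.6, 11.6 and 13.7 in pLN-SPF (−1.63 ± 0.40, limma adjusted p = 0.3, voom adjusted p = 0.0234). Its mLN groups overlapped, at 24.3, 23.9 and 10.5 in mLN-GF and 7.61, 14.4 and 6.89 in mLN-SPF.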

How the data were processed

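The authors mapped single-end reads of 50 bp to mm10 (GRCm38) using STAR 2.5.3a, retained uniquely placed reads and discarded duplicates (Picard). Broad peaks from MACS2, found in each library separately, were united and cleared of blacklisted regions, and the authors scaled reads in the united peaks by size factors from DESeq2 1.22. Whether reads were moved to the insertion site is not given in the sources used here. Deposited RPKM values cover every peak and library, beside the authors' fold changes and adjusted p-values for 4 comparisons and their gene assignments, which were not used. Of 42434 entries, 10 repeated a peak. The RPKM values were whole multiples of 1 read in all 11 libraries used (within 0.02 of a read), so reads were recovered.

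Peaks were placed on GENCODE vM21 basic in Python 3.11.15. The main test was limma 3.58.1 (R 4.3.3, trend) on log2(RPKM + 1) with 4 group means and 7 residual degrees of freedom, adjusted over all 42424 peaks. The pseudocount of 1 understates the change of low peaks. Single values per library were compared by exact permutation. Sequences are from RefSeq's GRCm38 genome. The members, lists and naming rule were chosen with earlier results of these data known. Named were the 10 largest called changes in each direction with separated libraries, the 3 largest per UTR class and direction, called housing members, the 5 highest levels, the 5 genes with most members, and up to 3 members per list by adjusted p, with exceptions stated and some members not reported here. Alternatives were pseudocounts of 0.5 and 4, a mean RPKM of at least 10, quantile normalization, voom on reads, fits of 2 groups, a replicate block, each library left out, and other definitions of members and reference. Added after seeing the data were members with any exonic base, GC matching, leaving out both mLN libraries numbered 2, and levels over members of mean RPKM at least 10.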

Additional observations from a re-analysis of the deposited data

How the results depend on the processing

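The number of members called by location moved most with single libraries. Leaving out each library in turn gave 70 to 162 calls in SPF mice (129 in the full fit) and 62 to 163 in GF mice (141 in the full fit). Without both mLN libraries numbered 2, the counts were 156 and 177. With any exonic base as the criterion, added after seeing the data, 221 peaks were called in SPF and 260 in GF mice, by construction from a larger set. Other settings gave 107 to 164 in SPF mice, and 110 members among those over 1 kb from any annotated TSS. Same-numbered SPF libraries correlated at 0.03, 0.27 and 0.23 in their deviations, not every library correlated best with its own number, and the libraries share only a number. With the replicate block the counts were 140 in SPF and 203 in GF mice. For housing in pLN, voom gave 3 calls in place of 0, of which the cause was not tested. No other setting gave a housing or interaction call. The difference in level between nodes was 0.077 to 0.161 and kept its side of the threshold in all 19 alternatives, and that between housings stayed on its side too (−0.043 to 0.021). Of 37 named members called in SPF mice, 24 were called under every alternative, 31 under every alternative that left out no library, and 0 changed direction. Depth limited single peaks, since the median member held 25 reads in the shallowest library.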
